A study of Homo sapiens with 6 samples.

Results

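The 37 genes described here are G2/M and mitotic genes, chosen by symbol as a list of genes that act in late G2 phase and in mitosis. All 37 were listed in each of the 6 libraries and all passed the expression minimum, out of 20979 symbols in the series, of which 13400 were tested. The cells were A172, a human glioblastoma line, and the 3 groups were transfected by lipid reagent with duplexes of the microRNA miR-324, named miR-324-5p (here 5p duplex) and miR-324-3p.1 (here 3p.1 duplex), or with a control miRNA (control). Each group had 2 libraries, numbered 1 and 2, and cells were harvested after 1 day. The labels name no genotype difference between the groups, do not say that replicates were separate cultures and do not say what libraries of the same number share, so p-values cover only the spread between libraries. A172 is a single established tumour line grown in serum, and each group saw 1 duplex at 1 time.

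Dividing cells make these transcripts in a wave that begins in S phase and peaks in G2 and mitosis. B-type cyclins and their kinase CDK1 start mitosis, kinases of the polo and aurora families build the spindle, a checkpoint at the kinetochores holds the cell in metaphase, and the anaphase-promoting complex ends mitosis by marking cyclin B and securin for destruction. Promoters of many such genes share CCAAT boxes and a CHR (cell cycle genes homology region), through which the MuvB complex acts with B-MYB and FOXM1 to activate them and, as part of the DREAM complex, to repress them in resting cells; p53 lowers them through p21 and DREAM. In bulk RNA a level reflects both the share of cells in G2 or mitosis and the transcript per cell, and fewer cells and less RNA per cell cannot be told apart.

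The mature arms for which the duplexes are named are shown because their seeds define the sites sought in the members. They are given 5′ to 3′ from RefSeq (GRCh38.p14, chromosome 17, minus strand), with the seed, bases 2 to 8, in capitals. The 3p.1 duplex comes with no sequence in the labels, so the 3p arm printed is that of RefSeq and may start at another base.
hsa-miR-324-5p: cGCAUCCCcuagggcauuggug
hsa-miR-324-3p: cCCACUGCcccaggugcugcugg
These mature sequences lie at 7223343 to 7223364 and 7223308 to 7223330. The arms do not share a seed.

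Few members carried a match to either seed. In the longest 3′UTR of basic protein-coding transcripts (GENCODE 29, GRCh38), 3 of 37 members (8.11%) held a 7mer or 8mer site for the 5p seed, against 14.5% of 11742 tested genes with a 3′UTR. For the RefSeq 3p seed 3 of 37 members (8.11%) held a site, against 31.9% of the 11742 genes. The members' 3′UTRs were shorter, with a median of 794 nt against 1360 nt over the 11742 genes. The 3 members with a 5p site are shown with the match in capitals on the sense strand.
BUB1: gggctgcttctGGGATGCAagcatttgtga
FOXM1: ggtgggaggatGGATGCAactgaagcaga
KIF20A: aattatatccaGGATGCAatactcagaca
The BUB1 match is an 8mer on chromosome 2 at 110637747 to 110637754 (minus strand), and the FOXM1 match is a 7mer-A1 (bases 2 to 7 and an A) on chromosome 12 at 2857935 to 2857941 (minus strand). The KIF20A match is a 7mer-A1 on chromosome 5 at 138187520 to 138187526 (plus strand). BIRC5, CDCA3 and NUSAP1 held the 3p matches, CDCA3 an 8mer. A match is a description of letters and no measure of binding.

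Promoters are shown for 4 members that behaved differently across libraries, as described further on: CENPE and TOP2A, which differed most between replicate numbers, and CCNB2 and KIF20A, which were not called there. RefSeq windows (GRCh38.p14, 300 bases around a gene's start, mostly before it) matched 31 of the 37 members, with 37 windows, since some genes have more than 1 start. Both strands were searched for the CCAAT box and for the CHR as TTTGAA or TTCGAA. Other forms of the CHR were not searched. Matches are in capitals, those on the other strand as their reverse complement.
CENPE (chr4:103198294-103198593, minus strand): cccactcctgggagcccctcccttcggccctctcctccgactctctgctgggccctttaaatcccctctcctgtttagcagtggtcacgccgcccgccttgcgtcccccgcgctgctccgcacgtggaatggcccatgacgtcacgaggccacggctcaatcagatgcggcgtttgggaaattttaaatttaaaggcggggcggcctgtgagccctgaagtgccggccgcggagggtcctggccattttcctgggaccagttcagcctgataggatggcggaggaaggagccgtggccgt
TOP2A (chr17:40417847-40418146, minus strand): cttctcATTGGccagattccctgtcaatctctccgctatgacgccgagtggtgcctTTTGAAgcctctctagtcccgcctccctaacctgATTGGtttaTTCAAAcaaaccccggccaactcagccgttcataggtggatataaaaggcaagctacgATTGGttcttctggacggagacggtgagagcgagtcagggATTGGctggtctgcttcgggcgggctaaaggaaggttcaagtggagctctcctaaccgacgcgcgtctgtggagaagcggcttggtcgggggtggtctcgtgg
CCNB2 (chr15:59104896-59105195, plus strand): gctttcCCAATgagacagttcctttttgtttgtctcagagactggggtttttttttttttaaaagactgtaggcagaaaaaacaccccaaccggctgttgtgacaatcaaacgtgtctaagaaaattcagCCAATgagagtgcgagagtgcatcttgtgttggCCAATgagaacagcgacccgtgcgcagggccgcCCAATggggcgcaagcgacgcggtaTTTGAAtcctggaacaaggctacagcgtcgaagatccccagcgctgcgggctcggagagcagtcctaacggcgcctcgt
KIF20A (chr5:138178862-138179161, plus strand): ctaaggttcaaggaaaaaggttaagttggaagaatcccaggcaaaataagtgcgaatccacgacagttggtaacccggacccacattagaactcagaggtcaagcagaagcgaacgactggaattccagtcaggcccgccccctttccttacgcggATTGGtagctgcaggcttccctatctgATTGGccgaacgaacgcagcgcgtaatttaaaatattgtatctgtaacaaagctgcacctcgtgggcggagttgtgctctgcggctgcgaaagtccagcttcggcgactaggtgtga
The CENPE window held 0 matches of either kind, the TOP2A window 2 CHR and 4 CCAAT matches, the CCNB2 window 1 and 4, and the KIF20A window 0 and 2. A CHR of the forms searched stood in 26 of the 37 member windows (70.3%), against 16.4% of 35116 promoter windows. At least 1 CCAAT stood in 28 (75.7%), against 34.6%. At least 2 CCAAT stood in 48.6% of member windows against 10.8%, and both motifs in 59.5% against 6.38%. CKAP2 and KIF2C, like CENPE, had neither motif in these windows.

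The members were well expressed, with means over the 6 libraries of 43.6 TPM for CDC25C to 429.6 TPM for CCNB1, on a scale per transcript length and library total. Together they held 7312 and 6325 TPM in replicates 2 and 1 of the 5p duplex. They held 7987 and 6522 TPM in replicates 2 and 1 of the 3p.1 duplex, and 7265 and 5802 TPM in those of control. The replicate 2 library was the higher one in every group, and each of the 3 replicate 2 sums lay above each of the 3 replicate 1 sums. The ranges of the 3 groups overlapped.

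**Figure D1:**
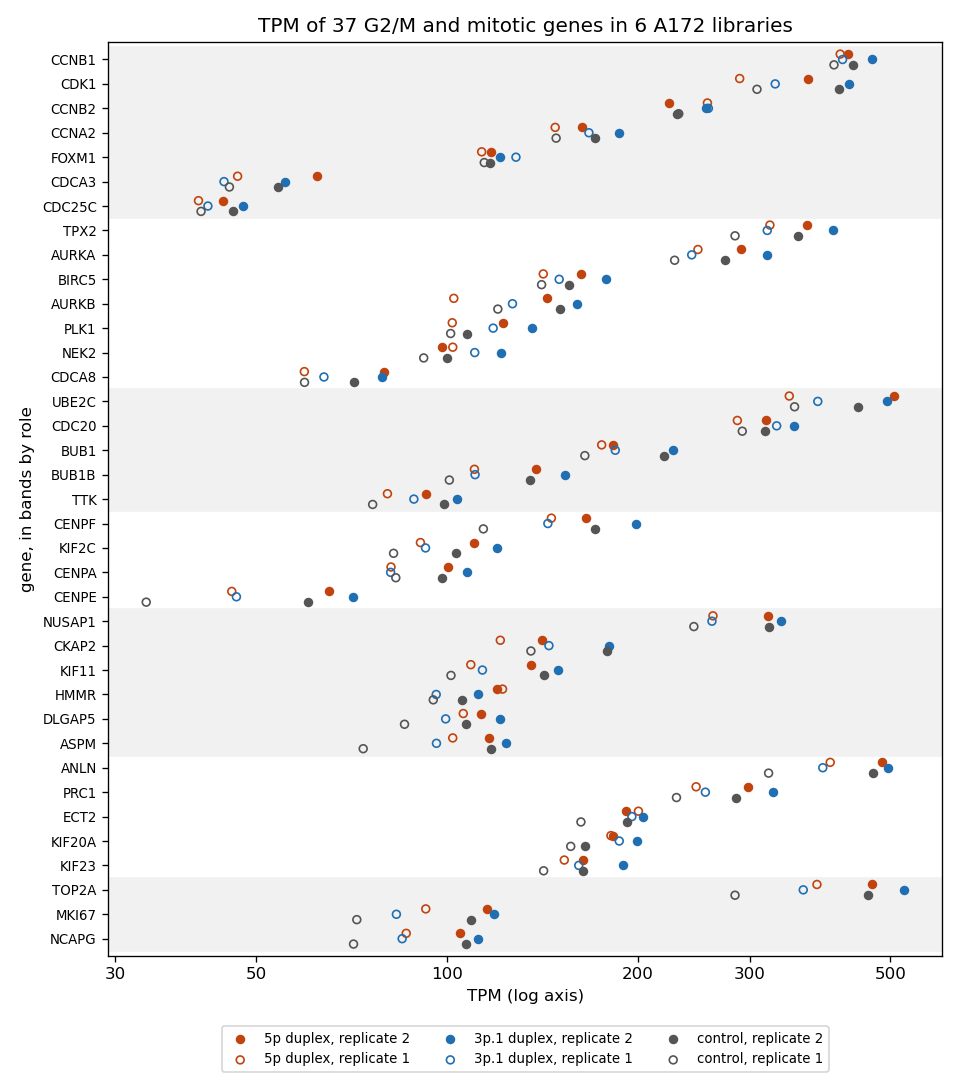
TPM (log axis) of the 37 genes in the 6 libraries, in bands by role; filled points are replicate 2, open points replicate 1, and colours give the group. For most genes, such as CENPE and CDK1, the 3 filled points lie right of the 3 open points, while for FOXM1, ECT2 and KIF20A they do not.

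As a check of the label, A172 cells expressed VIM (4788 to 5910 TPM), CD44 (708 to 929 TPM), NES (91 to 133 TPM), SOX9 and EGFR, of mesenchymal and glial progenitor type, in all libraries. The astrocyte marker GFAP stood at 0.05 to 0.25 TPM, FABP7 at no more than 0.01 TPM, and S100B was not listed. Of markers of other cells, KRT8 (259.5 to 486 TPM), KRT18 (612 to 858 TPM) and PTPRC (5.52 to 7.48 TPM) were present, CDH1 and the 4 endothelial markers stayed under 1 TPM, and CD3E and HBB were not listed. Each library listed 18660 to 19070 symbols, of which 13216 to 13536 reached 1 TPM.

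Libraries numbered 2 were compared with those numbered 1, within the 3 groups, because the members' levels are read with replicate numbers paired. In this comparison 21 of 37 members were called (adjusted p under 0.05, limma), all 21 higher in replicate 2. Of all tested genes, 9.40% were called and 5.81% were called higher. The members were chosen with the replicate 2 excess of the G2/M median already known, so these counts are no independent support. The difference was positive for 35 of 37 members, against 7359 of 13400 genes, with a median of 0.31 on the log2 scale, against 0.023 over all genes. It ran from -0.075 for CCNB2 to 0.64 for CENPE. Replicate 2 stood above replicate 1 in all 3 groups for 32 of 37 members, against 29.0% of genes. For 26 of 37 members each replicate 2 library stood above each replicate 1 library, against 15.2% of genes. The median difference was 0.22 in the 5p duplex (33 members positive), 0.31 in the 3p.1 duplex (35) and 0.32 in control (36). Counts of calls over all genes depended on the pairs of libraries kept and on the filter. Leaving out 1 library takes its whole pair out of this contrast. Without replicate 2 or replicate 1 of the 3p.1 duplex, 1.26% and 1.27% of genes were called and 1 member, CENPE, while the members' median was 0.29 with 36 of 37 positive and 22 at an unadjusted p under 0.05. With no filter on low values 0.0286% of genes were called and 0 members (limma, 30 at an unadjusted p under 0.05), with the members' median at 0.31.

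**Figure D2:**
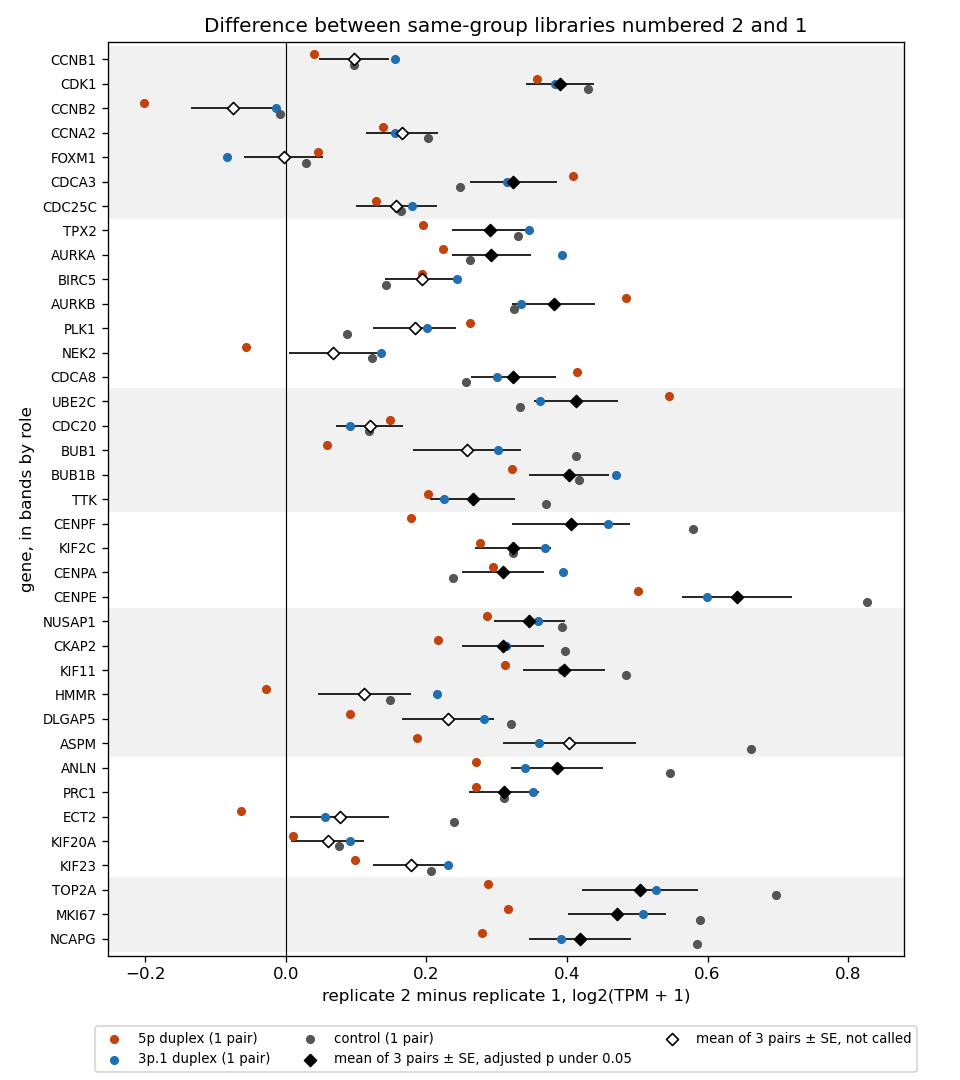
Difference of replicate 2 minus replicate 1 on the log2(TPM + 1) scale for each gene, in bands by role: coloured points are the 3 pairs, diamonds their mean with its SE, filled where called. CENPE, TOP2A and MKI67 lie farthest right, and CCNB2 and FOXM1 lie at or below 0.

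Centromere and kinetochore genes were all called between replicate numbers, 4 of 4, against 9.40% of all tested genes. This and the counts by role that follow are of few genes. They changed with the filter and the pairs kept, and the roles were not tested against each other. CENPE (ENSG00000138778.11, chromosome 4, 103105806 to 103198409, minus strand, GRCh38) encodes the kinesin that carries chromosomes to the spindle equator. It had 65.2 and 45.8 TPM with the 5p duplex, 71.0 and 46.5 TPM with the 3p.1 duplex and 60.3 and 33.5 TPM with control, in replicates 2 and 1 of each group, as for the pairs of values that follow. Every replicate 2 library was above 60 TPM and every replicate 1 library below 47 TPM, a log2 difference of 0.64 (SE 0.078, adjusted p = 0.0147). CENPF, a large kinetochore protein gene, had 165 and 146 TPM with the 5p duplex, 199 and 144 TPM with the 3p.1 duplex and 171 and 114 TPM with control. Control replicate 1 was the lowest of these libraries, and the replicate difference was 0.41 (SE 0.084, adjusted p = 0.0394). CENPA, the histone H3 variant of centromeres, ranged over 81.5 to 107 TPM and rose by 0.31 in replicate 2. KIF2C, the microtubule-depolymerising kinesin of centromeres, ranged over 82.4 to 119.8 TPM and rose by 0.32.

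The chromosome genes were also called, 3 of 3, against 9.40% of all tested genes. TOP2A encodes the topoisomerase that untangles sister DNA (chromosome 17, 40388516 to 40417950, minus strand) and had 468 and 383 TPM with the 5p duplex, 526 and 365 TPM with the 3p.1 duplex and 462 and 285 TPM with control. Its groups overlapped while its replicate numbers did not, with a log2 difference of 0.50 (SE 0.082, adjusted p = 0.0253). MKI67, which encodes the proliferation antigen Ki-67 of the chromosome surface, had 116 and 92.6 TPM with the 5p duplex, 119 and 83.2 TPM with the 3p.1 duplex and 109 and 72.1 TPM with control (difference 0.47, SE 0.07, adjusted p = 0.022). NCAPG, a condensin subunit, ranged over 71.2 to 112 TPM and rose by 0.42 (adjusted p = 0.0278).

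Of the cyclin and CDK1 switch, 2 of 7 genes were called, against 9.40% of all tested genes. CDK1, the kinase that starts mitosis, had 371 and 289 TPM with the 5p duplex, 429.8 and 329 TPM with the 3p.1 duplex and 416 and 308 TPM with control. All 3 replicate 2 libraries were above 370 TPM and all 3 replicate 1 libraries below 330 TPM (difference 0.39, SE 0.048, adjusted p = 0.0152). Its cyclin partners were not called. CCNB1, the main mitotic cyclin, had 428 and 417 TPM with the 5p duplex, 468 and 420.5 TPM with the 3p.1 duplex and 436 and 408 TPM with control, with a difference of 0.097 that was not called (SE 0.05, adjusted p = 0.255). CCNB2, a second B cyclin, had 224 and 257 TPM with the 5p duplex, 256 and 258 TPM with the 3p.1 duplex and 231 and 232 TPM with control, so replicate 2 of the 5p duplex was the lowest library. FOXM1, the transcription factor that drives many of these genes, had 117 and 113 TPM with the 5p duplex, 121 and 128 TPM with the 3p.1 duplex and 117 and 114 TPM with control and a difference of -0.0033 (SE 0.056, adjusted p = 0.976). CDCA3, a trigger of mitotic entry through WEE1 degradation, was the other called gene, at 44.5 to 62.4 TPM with a rise of 0.32 in replicate 2. CCNA2, the S and G2 cyclin, ranged over 148 to 186 TPM and CDC25C, the phosphatase that activates CDK1, over 40.6 to 47.7 TPM, with differences of 0.17 and 0.16 that were not called.

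Mitotic kinases and their partners had 4 of 7 genes called, against 9.40% of all tested genes. AURKB, the kinase of the chromosomal passenger complex, had 144 and 102 TPM with the 5p duplex, 160.2 and 127 TPM with the 3p.1 duplex and 151 and 120.3 TPM with control. Its lowest library was replicate 1 of the 5p duplex, and its difference was 0.38 (SE 0.059, adjusted p = 0.0237). AURKA, the spindle pole kinase, ranged over 229 to 319 TPM, TPX2, which activates it, over 285 to 407 TPM, and CDCA8, the borealin subunit of the passenger complex, over 59.6 to 79.7 TPM. These 3 rose by 0.29, 0.29 and 0.32 in replicate 2. BIRC5, which encodes survivin of the same complex, ranged over 141 to 178 TPM, with a difference of 0.19 that missed the threshold (adjusted p = 0.0744). PLK1, the polo kinase, had 122 and 102 TPM with the 5p duplex, 136 and 118 TPM with the 3p.1 duplex and 108 and 101 TPM with control, with a difference of 0.18 that was not called. NEK2, a centrosome kinase, had 98.1 and 102 TPM with the 5p duplex, 122 and 111 TPM with the 3p.1 duplex and 100.1 and 91.9 TPM with control, and its replicates overlapped (difference 0.067, SE 0.063, adjusted p = 0.522).

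Of checkpoint and anaphase-promoting complex genes, 3 of 5 were called, against 9.40% of all tested genes. BUB1B, the BubR1 checkpoint protein gene, had 138 and 110.5 TPM with the 5p duplex, 154 and 111 TPM with the 3p.1 duplex and 135 and 101 TPM with control (difference 0.40, SE 0.057, adjusted p = 0.0203). UBE2C, the ubiquitin-conjugating enzyme of the anaphase-promoting complex, had 506 and 347 TPM with the 5p duplex, 494 and 384 TPM with the 3p.1 duplex and 445 and 353 TPM with control, and its largest pair difference was in the 5p duplex (mean 0.41, SE 0.06, adjusted p = 0.0212). TTK, the MPS1 checkpoint kinase, ranged over 76.3 to 104 TPM and rose by 0.27. CDC20, the activator of the anaphase-promoting complex, had 318 and 287 TPM with the 5p duplex, 353 and 331 TPM with the 3p.1 duplex and 317 and 292 TPM with control, with a difference of 0.12 that was not called. BUB1, a checkpoint kinase, ranged over 165 to 227 TPM with a difference of 0.26 (adjusted p = 0.0899), and that difference was 0.059 in the 5p duplex pair alone.

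Spindle genes had 3 of 6 called, against 9.40% of all tested genes. CKAP2, a spindle microtubule protein gene, had 141 and 121 TPM with the 5p duplex, 180.0 and 145 TPM with the 3p.1 duplex and 179 and 136 TPM with control. Both 5p duplex libraries were below both 3p.1 duplex libraries, and the replicate difference was 0.31 (SE 0.058, adjusted p = 0.0323). NUSAP1, which bundles spindle microtubules, ranged over 245 to 336 TPM, and KIF11, the motor that separates spindle poles, over 101 to 149.6 TPM. They rose by 0.35 and 0.40. HMMR, a spindle assembly factor (chromosome 5, 163460203 to 163491945, plus strand), had 119.9 and 122 TPM with the 5p duplex, 112 and 96.2 TPM with the 3p.1 duplex and 106 and 95.1 TPM with control and a difference of 0.11 that was not called. ASPM, a spindle pole protein gene, had 116 and 102 TPM with the 5p duplex, 124 and 96.2 TPM with the 3p.1 duplex and 117 and 73.8 TPM with control. Its difference was 0.40 with an adjusted p = 0.0518, and control replicate 1 stood apart below the other 5 libraries. DLGAP5, which stabilises kinetochore fibres, ranged over 85.7 to 121 TPM with a difference of 0.23, not called.

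Midzone and cytokinesis genes had 2 of 5 called, against 9.40% of all tested genes. ANLN, the anillin of the contractile ring, ranged over 321 to 496 TPM, and PRC1, the bundler of midzone microtubules, over 230.1 to 326 TPM. They rose by 0.39 and 0.31 in replicate 2. KIF20A, a kinesin of the midzone (chromosome 5, 138178719 to 138187715, plus strand), had 183 and 181 TPM with the 5p duplex, 199 and 187 TPM with the 3p.1 duplex and 165 and 157 TPM with control, so its replicates lay close within each group. ECT2, the exchange factor that activates RhoA at the midzone, had 192 and 200.4 TPM with the 5p duplex, 203 and 196 TPM with the 3p.1 duplex and 192 and 163 TPM with control. Their differences of 0.059 and 0.077 were not called (adjusted p = 0.486 and 0.51). KIF23, a centralspindlin subunit, ranged over 142 to 189 TPM with a difference of 0.18, not called.

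Across the 37 members the replicate difference was larger for longer transcripts, with Pearson's r = 0.384 and Spearman's rho = 0.400 against log2 length, against 0.0586 and 0.138 over 12635 genes with an annotated length. These are correlations across genes of the same 6 libraries, which are not independent replicates. The 2 longest transcripts, MKI67 (12678 nt) and ASPM (10887 nt), differed by 0.47 and 0.40. UBE2C, at 914 nt the shortest, differed by 0.41. After removal of a fit on length and GC content in each library, 29 of 37 members were called, among 20.9% of genes, with a median of 0.30. By promoter, 13 of the 23 members with TTTGAA or TTCGAA in a window were called and 4 of the 8 without either. The 8 may hold a CHR of another form, which was not searched. All 6 members without CCAAT were called, and 11 of the 25 with it, where 9.40% of all genes were called. Members with no window are not in these counts, and the promoter groups were not tested against each other.

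**Figure D3:**
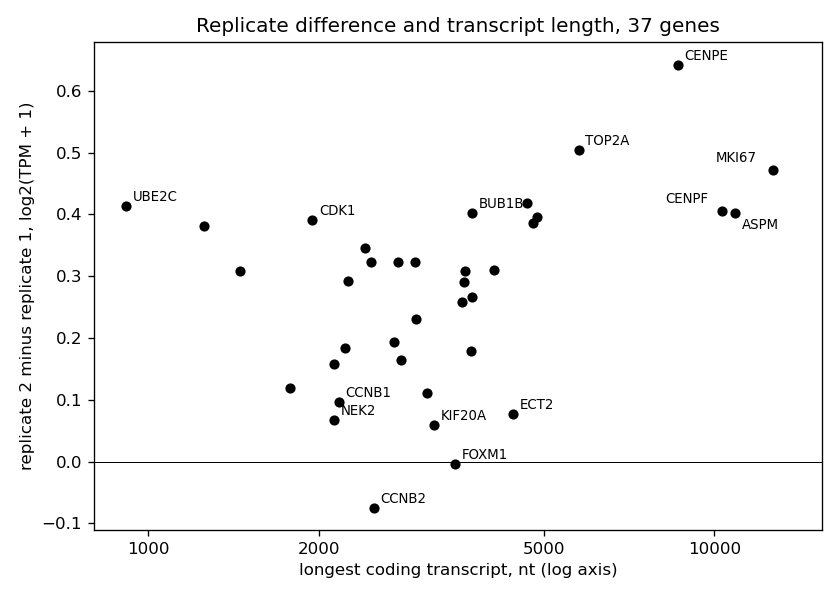
Replicate 2 minus replicate 1 on the log2(TPM + 1) scale (mean of 3 pairs) against the length of the longest coding transcript in nt (log axis), 1 point a gene. CENPE at 0.64 and MKI67 at 0.47 are long transcripts, and UBE2C at 0.41 is the shortest of the 37.

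Before the groups are compared, the control libraries need a description of their own, since they stood apart by interferon response genes. The 20 listed genes summed to 277 and 348 TPM in replicates 2 and 1 of the 5p duplex, 318 and 304 TPM in those of the 3p.1 duplex and 3642 and 1152 TPM in those of control. All 20 were lower with either duplex than with control, each at an unadjusted p under 0.05 (limma), with medians of -3.03 for the 5p duplex and -3.23 for the 3p.1 duplex. After adjustment over all genes, 4 of the 20 were called with the 5p duplex (IRF9, IFITM1, IFI6 and IFI27) and 0 with the 3p.1 duplex. The shares of all genes called were 0.463% and 0.0149%. Between replicate numbers 0 of the 20 were called (limma, 1 at an unadjusted p under 0.05), with a median difference of 0.50. The median replicate difference of these genes was -0.38 in the 5p duplex, 0.11 in the 3p.1 duplex and 1.78 in control, beside 0.22, 0.31 and 0.32 for the members. The part of the interferon genes in the members' differences was not tested.

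The first comparison between transfected RNAs set the 3p.1 duplex against control. None of the 37 members was called (limma, 2 members at an unadjusted p under 0.05, KIF20A and NEK2; lowest adjusted p = 0.597), where 0.0149% of all genes were called. All 37 differences were positive, against 5491 of 13400 genes, with a median of 0.16 and a range of 0.0057 (CDCA3) to 0.35 (CENPE), against a median of -0.033 over all genes. Standard errors of single members ran from 0.081 to 0.33. Both 3p.1 duplex libraries stood above both control libraries for 7 members, CCNB2, PLK1, CDC20, KIF20A, FOXM1, NEK2 and ECT2, where 12.1% of genes did so. For 0 members both stood below, against 24.1% of genes. Within same-numbered pairs, 35 of 37 members were above control in both pairs, all but CENPA and CDCA3, against 25.1% of genes. The median was 0.13 in the replicate 2 pair and 0.16 in the replicate 1 pair.

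Single members are given with their spread, from the fit without replicate number. KIF20A had 199 and 187 TPM with the 3p.1 duplex and 165 and 157 TPM with control, which do not overlap, a log2 difference of 0.26 (SE 0.083, adjusted p = 0.597). NEK2 had 122 and 111 TPM with the 3p.1 duplex and 100.1 and 91.9 TPM with control, a difference of 0.27 (SE 0.094, adjusted p = 0.642). PLK1 had 136 and 118 TPM with the 3p.1 duplex and 108 and 101 TPM with control, a difference of 0.28 (SE 0.12, adjusted p = 0.738). None of these 3 was called between replicate numbers. Of the members with a RefSeq 3p seed match, BIRC5 stood at 0.14 (SE 0.12, limma adjusted p = 0.918). CDCA3, with the 8mer, stood at 0.0057 (SE 0.18, adjusted p = 0.998) and NUSAP1 at 0.077 (SE 0.19, adjusted p = 0.986). CENPE, with the largest difference from control, overlapped between the groups and reached 0.35 (SE 0.33, adjusted p = 0.934). In same-numbered pairs CENPE stood above control by 0.23 in replicate 2 and 0.46 in replicate 1. With replicate number in the fit its SE was 0.096, and it was not called (adjusted p = 0.199, limma). The direction of the members' median depended on single libraries. It was 0.30 without control replicate 2 and -0.026 without control replicate 1, with 16 of 37 members positive. It was 0.0032 without replicate 2 and 0.31 without replicate 1 of the 3p.1 duplex. Such fits leave the replicate numbers unbalanced between the groups.

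The 5p duplex was next set against control. Again 0 members were called, where 0.463% of all genes were (limma, 1 member at an unadjusted p under 0.05, HMMR; lowest adjusted p = 0.519). The median difference was 0.079, against -0.030 over all genes, with 28 of 37 members positive and a range of -0.25 (CKAP2) to 0.27 (CENPE). Both 5p duplex libraries stood above both control libraries for 2 members, KIF20A and HMMR, against 12.7% of genes, and below for 0 members, against 22.1%. In both same-numbered pairs 15 members were above control, against 22.9% of genes. The median was 0.0046 in the replicate 2 pair (20 members positive) and 0.10 in the replicate 1 pair (27). Without control replicate 1 it turned to -0.075 with 6 members positive, and without replicate 2 of the 5p duplex to -0.027. It was 0.23 without control replicate 2 and 0.19 without replicate 1 of the 5p duplex.

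In the fit without replicate number HMMR was the member nearest to a call. It had 119.9 and 122 TPM with the 5p duplex and 106 and 95.1 TPM with control, a log2 difference of 0.27 (SE 0.11, adjusted p = 0.519). CKAP2 lay farthest below 0, with 141 and 121 TPM with the 5p duplex and 179 and 136 TPM with control, groups that overlap, a difference of -0.25 (SE 0.17, adjusted p = 0.764). In same-numbered pairs CKAP2 differed from control by -0.34 in replicate 2 and -0.16 in replicate 1. With replicate number in the fit, CKAP2 had the lowest adjusted p of the members (0.150, SE 0.071, limma), before HMMR (0.164, SE 0.081). Neither was called. Of the members with a 5p seed match, BUB1 stood at -0.089 (SE 0.16, adjusted p = 0.923), FOXM1 at -0.0044 (SE 0.081, adjusted p = 0.994) and KIF20A at 0.18 (SE 0.083, adjusted p = 0.602). None of these 3 was called in either direction.

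**Figure D4:**
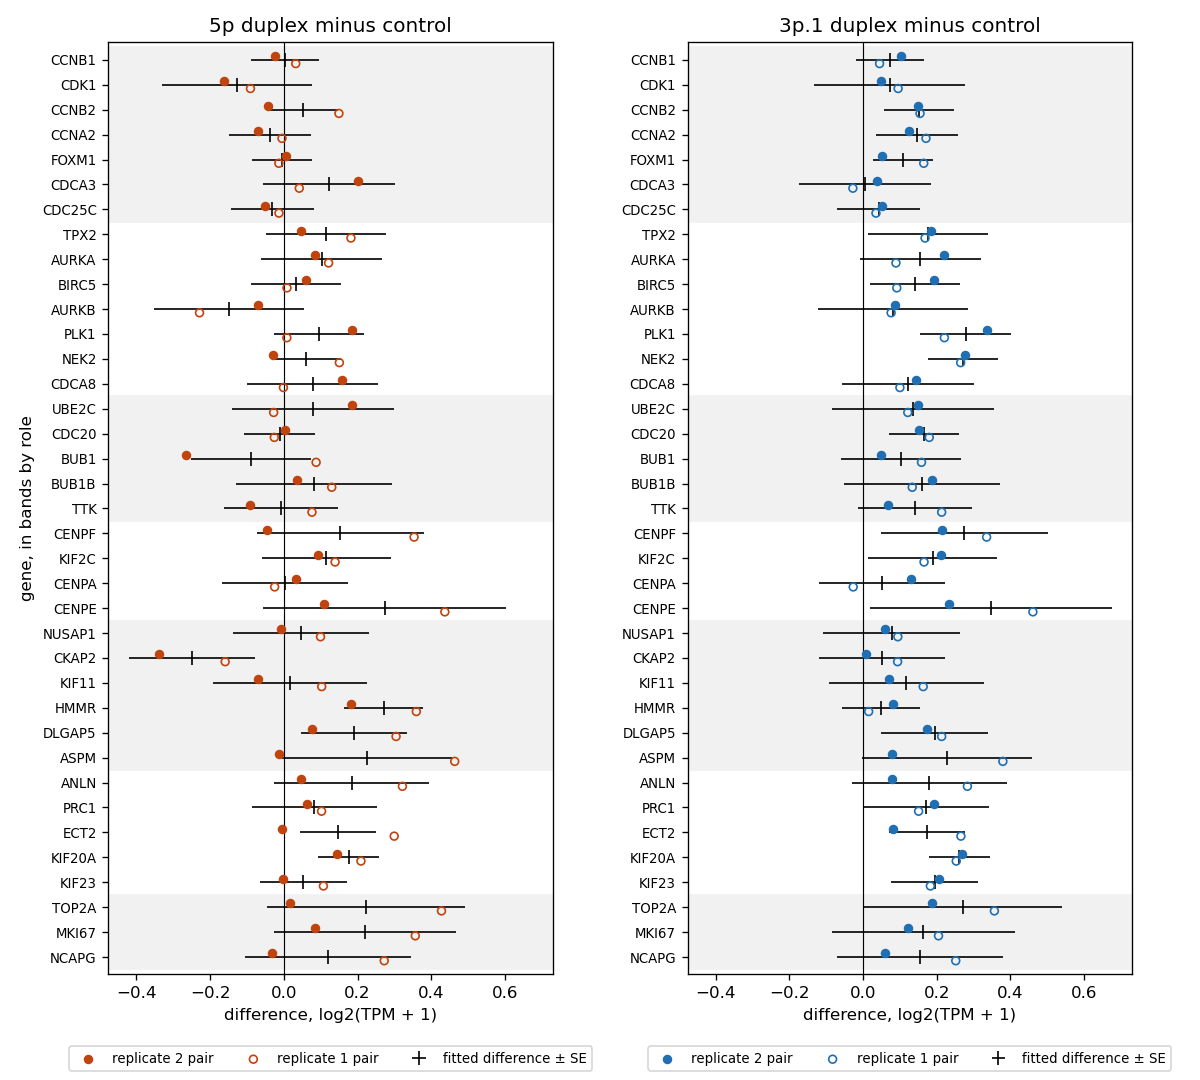
Difference from control on the log2(TPM + 1) scale for each gene, left for the 5p duplex and right for the 3p.1 duplex: filled points are the replicate 2 pair, open points the replicate 1 pair, and the tick with its bar is the fitted difference with its SE. All 37 ticks on the right lie above 0, the largest at 0.35 for CENPE, while 9 on the left lie below 0, the lowest at -0.25 for CKAP2.

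Set directly against the 3p.1 duplex, the 5p duplex gave 0 called members, where 0.433% of genes were called (limma, 0 members at an unadjusted p under 0.05). The median difference was -0.074, against 0.0055 over all genes, with 33 of 37 members negative. HMMR was the 1 member with both 5p duplex libraries above both 3p.1 duplex libraries, against 21.0% of genes, with a difference of 0.22 (SE 0.11, adjusted p = 0.613). For 7 members (18.9%), CCNA2, BUB1, CDC20, KIF20A, FOXM1, NEK2 and CKAP2, both lay below, near the share of 19.4% over all genes. In both same-numbered pairs 21 members were below, against 32.2% of genes. CKAP2 had 141 and 121 TPM with the 5p duplex and 180.0 and 145 TPM with the 3p.1 duplex, the most negative difference of the 37 at -0.30 (SE 0.17, adjusted p = 0.676). The median was 0.036 without replicate 1 of the 5p duplex and 0.096 without replicate 2 of the 3p.1 duplex, and -0.19 and -0.24 without replicate 2 of the 5p duplex and replicate 1 of the 3p.1 duplex.

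With the replicate number as a term in the fit, 0 members were called in any of these comparisons either. In that fit 2.74% of genes were called for the 5p duplex against control, 0.224% for the 3p.1 duplex against control and 2.07% for the 5p duplex against the 3p.1 duplex. At an unadjusted p under 0.05 there were 5, 11 and 8 members. Across the members the difference from control also went with transcript length, with r = 0.521 for the 5p duplex and 0.468 for the 3p.1 duplex, against 0.0851 and -0.0357 over all genes with a length, and both comparisons use the same control libraries. With a correction for length and GC content added to that fit, 6 members were called for the 5p duplex against control, where 8.14% of genes were. CENPE (0.28), HMMR (0.29), MKI67 (0.25), KIF20A (0.22) and DLGAP5 (0.21) were then higher and CKAP2 (-0.23) lower.

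Other genes of mitosis were read from lists chosen by function, with the replicate 2 excess of the G2/M median already known. Between replicate numbers, 5.81% of all genes were called higher in replicate 2 and 3.58% lower. Of 30 measured kinetochore and centromere partners, 13 were called higher in replicate 2 and 0 lower, with 27 positive and 3 negative (median 0.23). Among those called were HJURP, the chaperone of CENPA (log2 0.51, SE 0.051, adjusted p = 0.0106, limma), ZWINT (0.45) and SKA3 (0.48). HJURP had 163 and 114 TPM in replicates 2 and 1 of the 5p duplex, 179 and 128 TPM in those of the 3p.1 duplex, and 170.2 and 118 TPM in those of control. Of 14 mitotic entry genes 3 were called higher and 0 lower, with 12 positive and 2 negative (median 0.20). Those called were CCNF, an F-box cyclin (0.61), GTSE1 (0.34) and WEE1, the inhibitory kinase of CDK1 (0.25). Of 16 condensin and cohesin genes 2 were called higher and 0 lower, with 13 positive and 3 negative (median 0.14). Those called were CDCA5, the sororin gene (0.50), and NCAPG2 (0.35). Of 19 genes of the anaphase-promoting complex and sister separation 3 were called higher and 1 lower, with 9 positive and 10 negative (median -0.011). The 3 were ESPL1 (separase), FBXO5 (EMI1, an inhibitor of the complex) and ANAPC5, a subunit of it. The 1 called lower was PTTG1 (securin, the inhibitor of separase, -0.24). None of these 4 lists had a call in the comparisons between transfected RNAs, where 0.0149% to 0.463% of all genes were called.

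The regulators of these promoters were also read. None of 15 genes of the DREAM and MuvB complexes and B-MYB was called in any comparison (3 at an unadjusted p under 0.05 between replicate numbers, limma). Their median replicate difference was 0.047. Of all genes, 9.40% were called between replicate numbers and 0.0149% to 0.463% between transfected RNAs. At these shares few or no calls would be met among 15 genes. MYBL2, which encodes B-MYB, had 183 and 134 TPM with the 5p duplex, 174 and 153 TPM with the 3p.1 duplex and 160.5 and 145 TPM with control (replicate difference 0.26, SE 0.073, adjusted p = 0.0822). LIN9 and LIN54, subunits of MuvB, ranged over 27.9 to 34.6 TPM and 16.5 to 19.4 TPM, and E2F4, the DREAM transcription factor, over 64.3 to 73.4 TPM. RBL1, the p107 pocket protein gene, had 8.90 and 8.94 TPM with the 5p duplex, 17.3 and 16.1 TPM with the 3p.1 duplex and 18.5 and 13.0 TPM with control. Both 5p duplex libraries were the lowest, and the log2 difference from control was -0.73, not called (adjusted p = 0.180).

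Some genes of G1/S and of the p53 response were called between replicate numbers too. Of 35 G1/S and replication genes 6 were called higher in replicate 2, such as RRM2 (0.50) and ORC6 (0.45), where 5.81% of all genes were. Called lower were 2, PCNA (-0.26), the clamp of DNA polymerases, and MCM3 (-0.26), a subunit of the replicative helicase, where 3.58% were. In this list 26 differences were positive and 9 negative, with a median of 0.10. Between transfected RNAs that list had 0 calls, where 0.0149% to 0.463% of all genes were called. Its median was -0.065 for the 5p duplex against control and 0.093 for the 3p.1 duplex against control. For the 5p duplex against the 3p.1 duplex it was -0.20. Of 13 p53 targets of the cell cycle 6 were called lower in replicate 2, SESN1 (-0.50), MDM2 (-0.42), TP53INP1 (-0.48) and CDKN1A among them. Called higher was 1, GADD45B (0.28). Of all genes 3.58% were called lower and 5.81% higher. In this list 2 differences were positive and 11 negative, with a median of -0.28. Between transfected RNAs the p53 targets had 0 calls too, beside the same shares of all genes. Their medians were 0.20 for the 5p duplex against control (12 positive) and -0.063 for the 3p.1 duplex against control (4 positive). For the 5p duplex against the 3p.1 duplex the median was 0.36 (10 positive). CDKN1A, which encodes p21, the inhibitor of cyclin-dependent kinases, had 347 and 398 TPM with the 5p duplex, 178 and 261 TPM with the 3p.1 duplex and 189 and 303 TPM with control. It was lower in the replicate 2 library of every group (log2 -0.48, SE 0.094, adjusted p = 0.0357), the libraries in which the members' sum was higher. Its part in the members' levels was not tested.

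**Figure D5:**
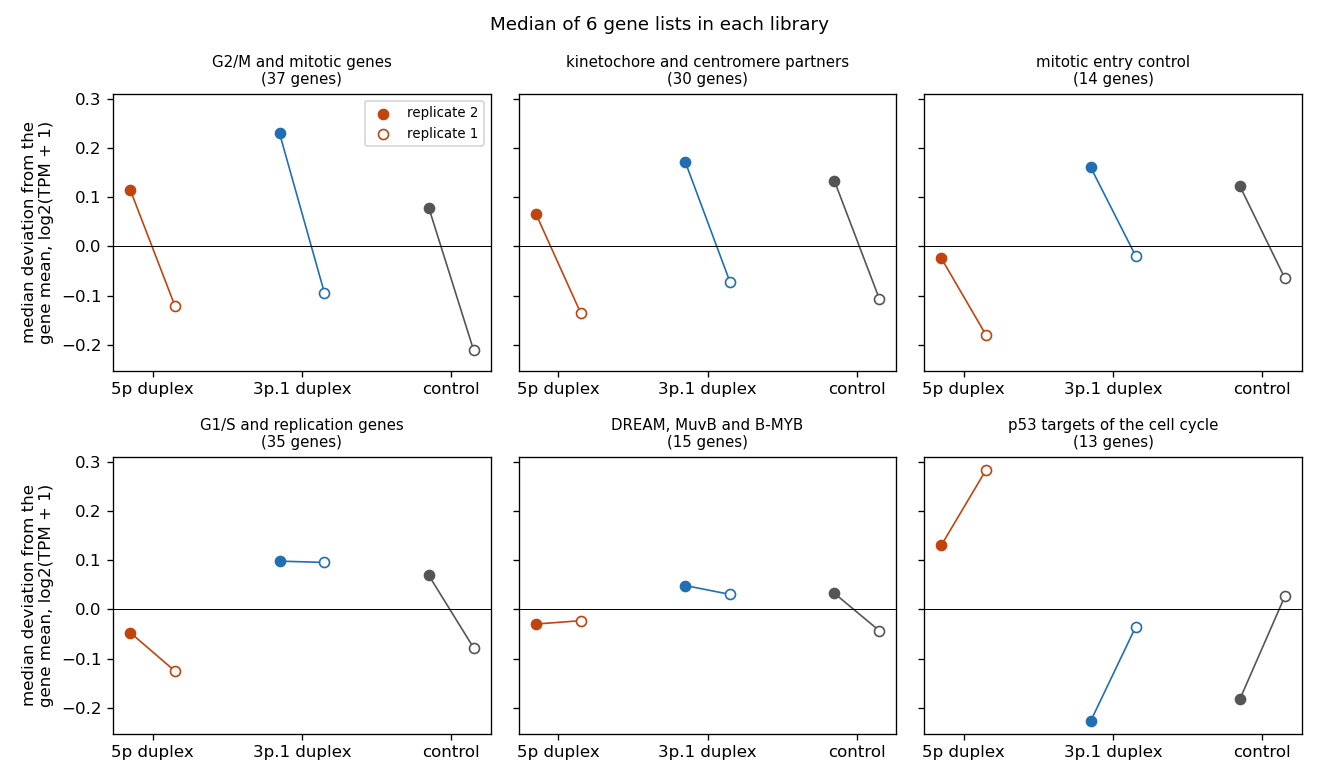
Median deviation of 6 gene lists from each gene's mean over the 6 libraries, on the log2(TPM + 1) scale, for replicate 2 (filled) and replicate 1 (open) of each group. The G2/M genes fall between 0.23 in replicate 2 of the 3p.1 duplex and -0.21 in replicate 1 of control. In each group the G2/M genes are higher in replicate 2 than in replicate 1, and the p53 targets lower.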

How the data were processed

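Polyadenylated RNA of A172 cells was read as stranded 100 bp pairs, per the labels' protocols. The authors deposited 1 list of symbols with TPM per library. RSEM and GRCh38 are named per the submitters' processing notes, and the sources used here give no other upstream step. TPM does not hold read numbers, so the sequencing depth is unknown and neither a count test nor a counting interval can be had. Symbols not listed in a library were taken as 0, and repeated symbols were summed.

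Values were analysed as log2(TPM + 1), which understates changes of low genes, for the 13400 genes whose mean reached 1 TPM. Differences are on this scale. limma 3.58.1 in R 4.3.3, with a variance trend, was fitted to group means of all 6 libraries (3 residual and 3.38 prior degrees of freedom). The replicate contrast came from a fit of group and replicate number (2 residual and 4.17 prior degrees of freedom). Calls have a Benjamini-Hochberg adjusted p under 0.05 over all genes tested, two-sided. An exact permutation test of 2 against 2 libraries cannot go below 0.333, so none was used. The fit was tested on simulated data.

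The members and lists were chosen with earlier results of these data known, including the replicate 2 excess of the G2/M median, which is therefore no independent support. All 37 members were named whatever their values; of other lists, counts, medians and up to 3 called genes by lowest p, with CDKN1A, MYBL2, LIN9, LIN54, E2F4 and RBL1 in any case. IFI27, PTTG1, MCM3 and GADD45B were named after their values were seen, to complete counts. Alternatives were a pseudocount of 0.1, no filter, quantile normalization, leaving out each library, a replicate block and, added after the data were seen, a length and GC correction with that block. Lengths, GC content and 3′UTRs came from GENCODE 29, and promoters and microRNAs from RefSeq.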

Additional observations from a re-analysis of the deposited data

How the results depend on the processing

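In the comparisons between transfected RNAs, 0 members were called under a pseudocount of 0.1, no filter on low values, quantile normalization, each library left out and the replicate block. The block with length and GC correction, chosen after seeing the data, called 6 members for the 5p duplex against control, with CENPE, DLGAP5, HMMR, KIF20A and MKI67 higher and CKAP2 lower, among 8.14% of genes. For the 5p duplex against the 3p.1 duplex it called 4 members, CCNA2, CDK1, CKAP2 and NEK2, all lower, among 8.72% of genes, and for the 3p.1 duplex against control 0, among 0.396%. Between replicate numbers 21 members were called with a pseudocount of 0.1 (9.31% of genes), 19 with quantile normalization (8.22%), 29 with length and GC correction (20.9%) and 0 with no filter (0.0286%). Leaving out 1 library gave 1 to 21 calls, with 169 to 1680 genes called in all, against 1259, and the lowest counts where a 3p.1 duplex library was left out. Leaving out 1 library takes its whole pair out of the replicate contrast, since that fit also holds the group. The members' median was 0.27 without the control pair, 0.33 without the 5p duplex pair and 0.29 without the 3p.1 duplex pair. What else lay behind these changes was not tested. Counts of all called genes between transfected RNAs moved as well: for the 5p duplex against control, 9 with no filter and 7 to 128 with 1 library left out, against 62; for the 3p.1 duplex against control, 0 with no filter and 5 to 94, against 2; for the 5p duplex against the 3p.1 duplex, 5 with no filter and 7 to 26, against 58. Quantile normalization gave member medians of 0.099, 0.14, -0.052 and 0.29 for the 5p duplex against control, the 3p.1 duplex against control, the 5p duplex against the 3p.1 duplex and the replicate contrast, where the medians of all genes were 0.026, 0.019, 0.0094 and -0.011. The labels tie replicate numbers to no batch, and with 2 pairs per comparison the pairing rests on the data alone: replicate differences correlated across all genes at 0.265 between 5p duplex and control, 0.375 between 3p.1 duplex and control and 0.383 between 5p duplex and 3p.1 duplex. The replicate block called 0 members, and 367, 30 and 278 genes in the 3 comparisons, against 62, 2 and 58 without it.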
